A study of Sus scrofa domesticus with 16 samples.

Results

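Cytosolic ribosomal proteins are the protein subunits of the ribosome that translates nuclear-encoded mRNA. They were followed here in adrenal glands of domestic pigs. The genes were chosen by symbol in the array's annotation (RPL or RPS followed by a digit, RPLP0, RPLP1, RPLP2 and RPSA, with the RPS6K kinases left out). This gave 64 of the 6765 genes with a probe set of their own, 38 of the large subunit and 26 of the small subunit. Of the 64, 59 were counted as ribosomal proteins in the strict sense, among them RPL36AL, which by its symbol is a paralog of RPL36A. The other 5 are RPL7L1, RPL22L1, RPL26L1 and RPS27L, which are paralogs of ribosomal proteins, and RPS19BP1, which encodes a protein that binds RPS19. RPL10, RPL35A and RPL36 shared their probe sets with another gene in the annotation and were not analysed here. For each gene the brightest of its probe sets was used.

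Total RNA from the adrenal glands of 16 animals was hybridised to 1 porcine genome array per animal. Pigs that did not know each other had been mixed. The high stress group held 8 animals of a mixing treatment with high aggressiveness, and the low stress group held 8 of a treatment with low aggressiveness. By the submitters' account the groups were selected as ones that differed in fighting behaviour and in plasma cortisol, and the comparison asks how the gland's transcripts differed between them. Breed, age and sex are not in the labels used here, and each animal was counted as 1 replicate.

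A ribosome is built from a small subunit, which reads the mRNA, and a large subunit, which joins amino acids. Most of their proteins are present in a single copy each, and the genes are expressed together in most cells. Their mRNAs carry a pyrimidine tract at the 5′ end through which the growth signal of mTOR controls translation as a group. In the adrenal cortex, corticotropin acts on growth and protein synthesis as well as on steroid output.

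The adrenal identity of the samples was visible in the markers measured. The summed signal of 7 cortex genes, among them STAR, CYP11A1 and CYP17A1, was 86651 to 119835 in high stress glands, against 79715 to 114781 in low stress glands. That of 5 chromaffin cell genes of the medulla was 34121 to 60181 in high stress and 30422 to 56715 in low stress, and that of 6 T and B cell genes was 260.8 to 479.0 in high stress and 286.5 to 507.2 in low stress. Only 2 of these 6 T and B cell genes lay above the filter on low signal that is given below. The 4 smooth muscle genes summed to 6789 to 18704 in high stress and 3503 to 18650 in low stress. Signals of different probe sets are not on a common molar scale. By the signal of dap, a bacterial control RNA spiked into the labelling, the arrays formed 2 sets of 8, which no label names. The mean dap signal was 3261 to 4826 in the high-spike set and 515.7 to 720.5 in the low-spike set, and each set held 4 animals of either stress group. In gland tissue, fewer cells of a type and less RNA per cell cannot be told apart.

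Most ribosomal protein genes gave signals at the top of the array's range. The mean log2 signal over 16 animals lay between 13 and 15 for 56 of the 64 genes, and 54 were among the 239 brightest of 23999 probe sets. These 64 probe sets held 6.16% to 7.74% of an array's summed signal in high stress glands and 5.77% to 7.85% in low stress glands. The brightest probe set on any single array gave 26388 to 41994, and RPS18, of the small subunit's head, had a median of 31397. RPL5, which carries 5S rRNA into the large subunit, had a median signal of 30560, and RPL13A, which in human cells is also released from the ribosome to silence inflammatory mRNAs, had 30450. A probe set's signal depends on how its probes bind as well as on the transcript, so these values set no order among the mRNAs.

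The 8 genes below this range were RPL26, RPL30, RPL37, RPS15A and 4 of the 5 paralogs and binding proteins. RPS15A and RPL30 had median signals of 25.5 and 45.2 and did not pass the filter on low signal, a mean log2 signal of at least 6.15, which left 62 genes for testing. RPL26, at a median signal of 78.9, passed it narrowly. RPL26L1, which encodes a close copy of the RPL26 protein, had a median signal of 3959 from its own probe set. RPL26, RPL30, RPS15A and RPL37 (median signal 1245) each had 1 probe set. Probe sets that Affymetrix marks as matching several transcripts were the brightest for RPL27, RPS27L and RPS28, so signal of related sequences may be included in them.

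Between high and low stress glands no ribosomal protein gene differed detectably. Of the 62 tested, 23 had higher and 39 lower means in high stress, and none passed limma at an adjusted p under 0.05, where 0.0% of all 14399 probe sets did. At an unadjusted p under 0.05 there were 0 of the 62, while 3.19% of all probe sets lay below that value. The smallest unadjusted p of the 62 genes was 0.34. The median log2 fold change of the 62 genes was -0.01, against -0.03 over all probe sets tested. The split of directions followed the scaling, with 35 of the 62 higher in high stress after quantile normalization and 57 after centring each array on its median. The ranges of the high stress and the low stress animals overlapped for each of the 62 genes.

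**Figure D1:**
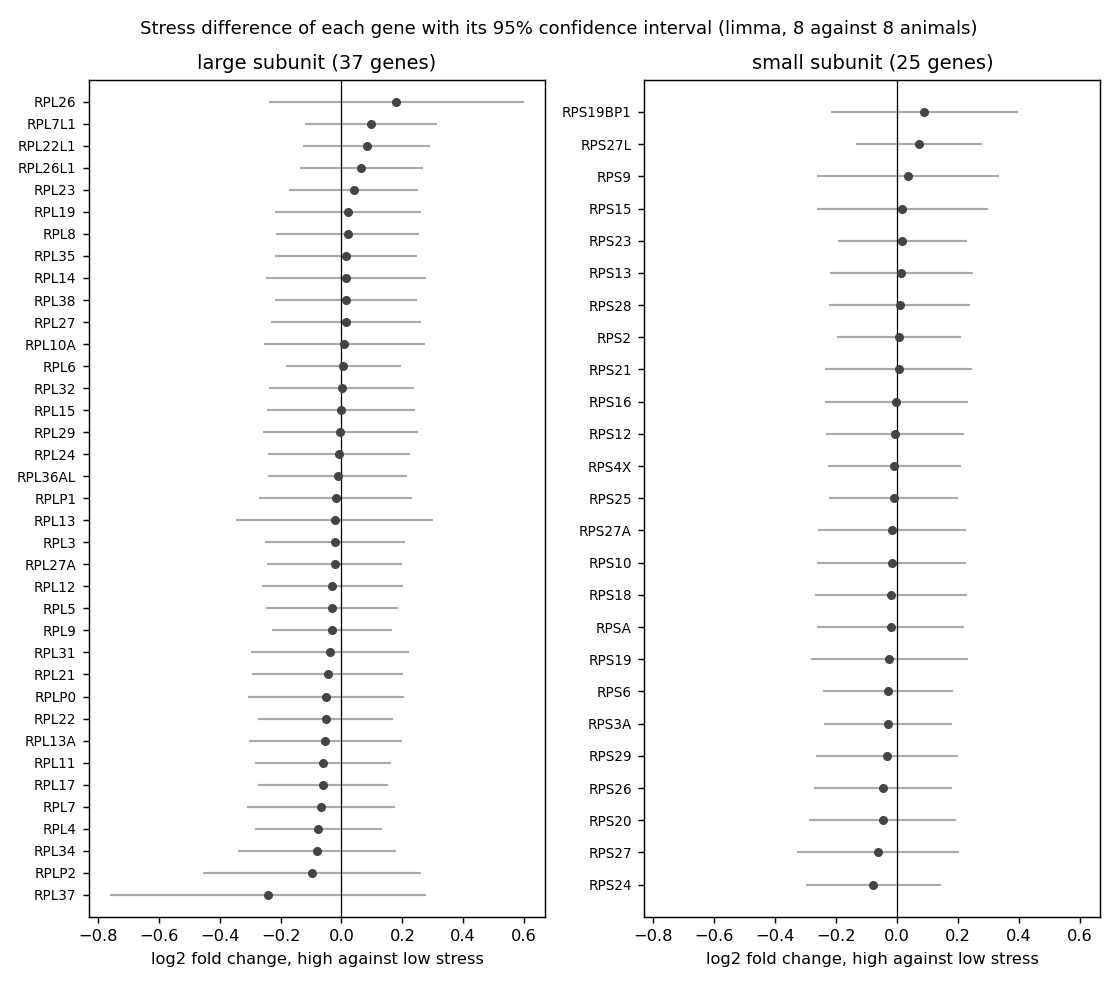
Log2 fold change of each tested gene, high against low stress (horizontal axis), as a point with its 95% confidence interval from limma over 8 high stress and 8 low stress animals, for the large subunit on the left and the small subunit on the right. Every interval spans 0, and those of RPL37 and RPL26, which have dimmer probe sets, are wider than the rest.

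The intervals were narrow for the bright genes. Among the 56 with a mean log2 signal above 13, fold changes on the log2 scale lay between -0.10 and 0.08. Their 95% confidence intervals ran at most from -0.45 to 0.34. With the spike-in set as a block, the intervals ran at most from -0.33 to 0.28. A difference in signal beyond 0.794-fold or 1.22-fold lay outside the interval of each of these 56 genes. Whether signals at the top of the array's range still follow the amount of transcript in full was not tested. The intervals also leave out the choice of scaling, as median centring moved the median of the 62 genes from -0.01 to 0.06. The smallest adjusted p with the block was 0.849 among the 62 genes, with 0.00694% of all probe sets past the threshold in that fit (1 of 14399).

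Among large subunit genes on the lower side, RPL37, a zinc-binding protein, had a log2 signal of 8.78 to 10.66 in high stress (median 10.19) and of 9.41 to 10.73 in low stress (median 10.35). Its log2 fold change of -0.24 (SE 0.25) was the largest in size of the 62, with an interval of -0.76 to 0.28. RPL4, which lines the tunnel through which the new protein leaves, had 14.04 to 14.47 in high stress (median 14.18) and 13.98 to 14.50 in low stress (median 14.24). Its log2 fold change was -0.08 (SE 0.10), and each high stress animal lay within the low stress range. RPL34, RPL17, RPL7 and RPL11 had log2 fold changes of -0.08, -0.06, -0.07 and -0.06 (SE 0.12, 0.10, 0.12 and 0.11). RPL11 binds 5S rRNA together with RPL5 and, when free of ribosomes, the p53 regulator MDM2.

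The acidic stalk of the large subunit, formed by RPLP0, RPLP1 and RPLP2, recruits elongation factors. RPLP2 had a log2 signal of 13.19 to 14.21 in high stress (median 13.73) and of 13.47 to 14.27 in low stress (median 13.80). Its log2 fold change was -0.10 (SE 0.17), beside -0.05 for RPLP0 and -0.02 for RPLP1 (SE 0.12 each). The spread of RPLP2 within each stress group, with an SD of 0.38 in high stress and 0.32 in low stress, was wider than that of RPLP0, at 0.20 and 0.25.

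On the higher side of the large subunit stood RPL26, with a log2 signal of 5.61 to 6.85 in high stress (median 6.46) and 5.69 to 6.78 in low stress (median 6.19). Its fold change of 0.18 (SE 0.20) comes from a probe set close to the filter value. RPL23, on the face that meets the small subunit, had 14.08 to 14.51 in high stress (median 14.34) and 13.97 to 14.47 in low stress (median 14.30), a log2 fold change of 0.04 (SE 0.10).

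Small subunit genes had log2 fold changes between -0.08 and 0.09. RPS24, whose human gene is mutated in Diamond-Blackfan anaemia, had a log2 signal of 13.94 to 14.33 in high stress (median 14.09) and 13.90 to 14.44 in low stress (median 14.13), a log2 fold change of -0.08 (SE 0.11). RPS9, which sits near the mRNA entry, had 13.76 to 14.46 in high stress (median 14.15) and 13.58 to 14.44 in low stress (median 14.03), with 0.04 (SE 0.14). RPS6, the substrate of the S6 kinases, had a log2 fold change of -0.03, and RPS4X, encoded on the X chromosome, had -0.01. Both lay within the spread between animals.

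The 4 paralogs that were set apart from the strict ribosomal proteins, and RPS19BP1, each had a higher mean in high stress. None passed (adjusted p = 0.999 each, limma). All 5 were also higher after quantile normalization and within each spike-in set, but these fits reuse the same animals and are not separate readings. Median centring left all 5 higher too. It raised the stress value of each gene by the same amount, so a higher mean could not turn lower there. RPL7L1, a nucleolar relative of RPL7, had a log2 signal of 10.98 to 11.61 in high stress (median 11.39) and 10.93 to 11.43 in low stress (median 11.31), a log2 fold change of 0.10 (SE 0.10). RPL22L1, a paralog that can take the place of RPL22, had 12.89 to 13.54 in high stress (median 13.20) and 12.86 to 13.34 in low stress (median 13.13), with 0.08 (SE 0.10). RPS27L, which is induced by p53 in human cells, had 0.07 (SE 0.10), RPL26L1 0.07 (SE 0.10) and RPS19BP1, a cofactor of the deacetylase SIRT1, 0.09 (SE 0.15). Among the other 57 tested genes, 18 were higher and 39 lower as deposited. After quantile normalization 30 of the 57 were higher and 27 lower, and after median centring 52 were higher and 5 lower. Within the low-spike set 42 of the 57 were higher and 15 lower, and within the high-spike set 3 were higher and 54 lower. The directions of the 57 thus changed with scaling and set. RPL36AL, counted among these 57, had -0.01.

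Large and small subunit genes did not part from each other with stress. The median log2 fold change was -0.02 over 37 large subunit genes, of which 14 were higher, and -0.01 over 25 small subunit genes, of which 9 were higher. The mean log2 signal of the large subunit genes was 13.85 ± 0.18 in high stress glands, against 13.87 ± 0.18 in low stress glands (SD, n = 8 each). That of the small subunit genes was 14.31 ± 0.19 in high stress glands, against 14.32 ± 0.20 in low stress glands (SD, n = 8 each). The large minus small subunit mean of an animal was -0.46 ± 0.03 in high stress glands, against -0.45 ± 0.04 in low stress glands (SD, n = 8 each). This offset also holds how the probe sets of the genes bind and is no ratio of subunits. Over the 16 animals the large and the small subunit means correlated at r = 0.986, both being read from the same arrays.

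**Figure D2:**
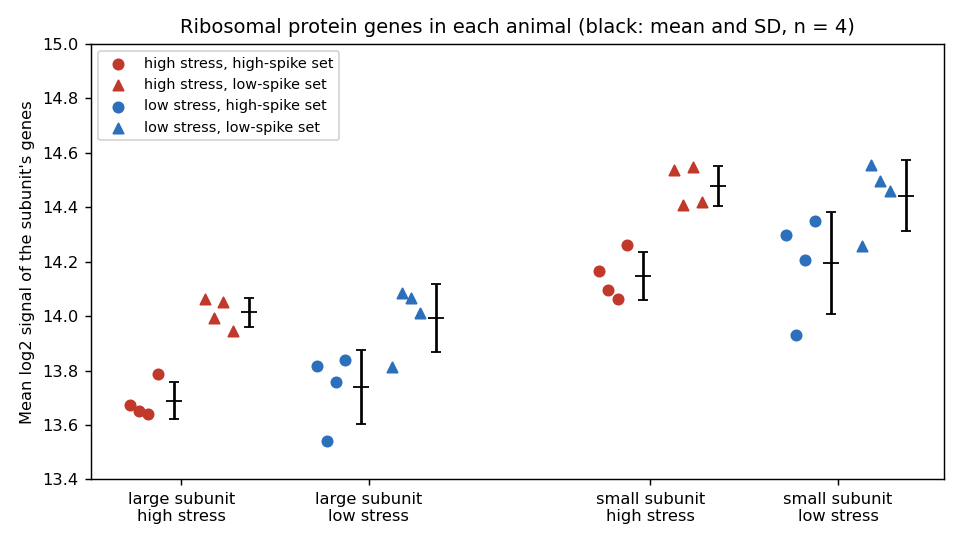
Mean log2 signal of the 37 large subunit and the 25 small subunit genes in each animal (vertical axis), with high stress (red) left of low stress (blue) and the high-spike set (circles) left of the low-spike set (triangles). Black bars give the mean and SD of 4 animals. The stress groups lie at one height, while most triangles lie above all circles; low stress replicate 2 is the triangle among the circles.

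As deposited, the larger contrast in these genes lay between the spike-in sets, and it depended on how the arrays were scaled. In the high-spike set all 62 tested genes had lower means than in the low-spike set, and 54 passed limma at an adjusted p under 0.05, or 87.1%, where 16.3% of all probe sets passed as lower. With the brightest probe set of each of the 5455 genes tested, 24.2% passed as lower and the median was -0.11. No share for probe sets of like brightness is given here. Of the 37 large subunit genes 31 passed and of the 25 small subunit genes 23. The median log2 fold change, high-spike against low-spike, was -0.29 for the 62 genes (0.820-fold) and -0.02 for all probe sets tested. The mean of the 62 genes was 13.90 ± 0.12 in the high-spike set and 14.19 ± 0.09 in the low-spike set (SD, n = 8 each). Low stress replicate 2, at 13.99, was the lowest of its set and lay within the high-spike range of 13.70 to 14.04. For 9 of the 62 genes no animal of the high-spike set reached any of the low-spike set, as was so for 1.88% of all probe sets.

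Those calls depended on how arrays were scaled against each other. After quantile normalization, which gives each array the same distribution of signals, 4 of the 62 genes were called lower (RPL13, RPLP2, RPS9 and RPS19BP1), where 21.4% of all probe sets and 26.7% of the 5455 genes were, and the median log2 fold change of the 62 was -0.04. Most of the 62 genes lay among the brightest probe sets, and a shift shared by these is removed when arrays are given the same distribution. Its part in the change of calls was not tested. Several measures of the arrays moved with the sets. The array median of log2 signal was 7.01 to 7.20 in the high-spike set and 6.86 to 7.09 in the low-spike set. The 99th percentile of an array was 13.33 to 13.61 in the high-spike set and 13.55 to 13.73 in the low-spike set. Over 16 arrays it correlated with the mean of the 62 genes at r = 0.943, both being read from the top of the same arrays. Actin probe sets from the 3′ and 5′ ends of the mRNA gave a ratio of 5.28 to 8.80 in the high-spike set, against 9.97 to 21.9 in the low-spike set. The 4 smooth muscle genes, all called lower, summed to 3503 to 11099 in the high-spike set and 7562 to 18704 in the low-spike set. The 7 cortex genes summed to 79715 to 110860 in the high-spike set and 99308 to 119835 in the low-spike set, with 2 called lower and 1 higher. In the other marker lists, 1 of 2 blood cell genes and 1 of 3 fibroblast and capsule genes tested were called higher. Of 5 chromaffin and 5 endothelial cell genes 1 each was called lower. None of the 2 T and B cell and 3 myeloid genes tested was called. In this fit to the deposited values 16.3% of all probe sets were called lower and 23.7% higher. After quantile normalization 3 of the 4 smooth muscle genes were called lower. The part of these measures in the difference was not tested.

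**Figure D3:**
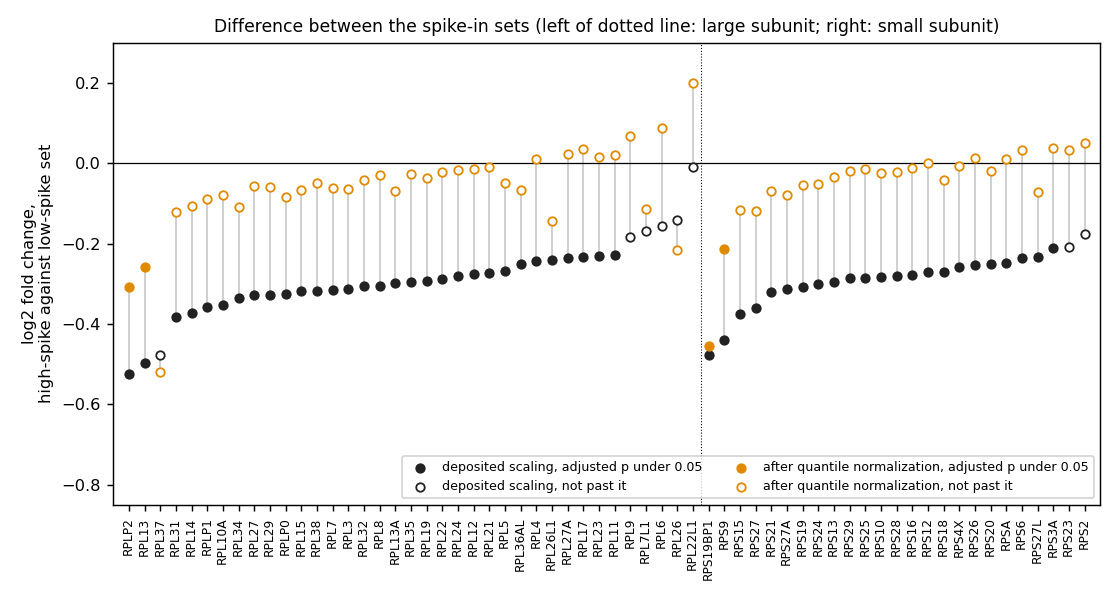
Log2 fold change, high-spike against low-spike set, of each tested gene (vertical axis), as deposited (black) and after quantile normalization (orange), with filled points past an adjusted p of 0.05 in limma; large subunit genes left of the dotted line. In black 54 of 62 points are filled and all lie below 0, and in orange 4 are filled.

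RPL13 and RPLP2 were called under both scalings. RPL13, a large subunit protein, had a log2 signal of 13.25 to 13.72 in the high-spike set (median 13.59) and 13.79 to 14.19 in the low-spike set (median 14.09). It was 0.709-fold in the high-spike set (log2 fold change -0.50, SE 0.09, adjusted p = 0.000711, limma), and -0.26 after quantile normalization (adjusted p = 0.0101). The ranges of the sets did not overlap. RPLP2 had 13.19 to 13.81 in the high-spike set (median 13.55) and 13.59 to 14.27 in the low-spike set (median 14.07), a log2 fold change of -0.52 (SE 0.11, adjusted p = 0.00166, limma), and of -0.31 after quantile normalization (adjusted p = 0.0316). Its partners in the stalk, RPLP0 and RPLP1, had -0.33 and -0.36 as deposited (adjusted p = 0.0086 and 0.00173) and -0.08 and -0.09 after quantile normalization (adjusted p = 0.256 and 0.217).

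In the small subunit, RPS9 had a log2 signal of 13.58 to 14.07 in the high-spike set (median 13.89) and 14.00 to 14.46 in the low-spike set (median 14.35). Its log2 fold change was -0.44 (SE 0.09, adjusted p = 0.00132, limma) and -0.21 after quantile normalization (adjusted p = 0.0118). RPS19BP1 had 10.61 to 11.05 in the high-spike set (median 10.73) and 11.06 to 11.48 in the low-spike set (median 11.24). Its log2 fold change was -0.48 (SE 0.09, adjusted p = 0.000525, limma), and -0.45 after quantile normalization. The ranges of the sets did not overlap for RPS19BP1. RPL31, at the rim of the exit tunnel, had 14.27 to 14.60 in the high-spike set (median 14.46) and 14.59 to 14.95 in the low-spike set (median 14.86). It had -0.38 (SE 0.08, adjusted p = 0.00109, limma) as deposited but -0.12 after quantile normalization (adjusted p = 0.116).

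The 8 genes that did not pass were RPL6, RPL7L1, RPL9, RPL22L1, RPL26, RPL37, RPS2 and RPS23. RPS2, at the mRNA entry, had a log2 fold change of -0.18 (SE 0.08), RPL6 had -0.16 (SE 0.08) and RPL37 had -0.48 (SE 0.22). RPL22L1 had 12.86 to 13.54 in the high-spike set (median 13.17) and 12.97 to 13.29 in the low-spike set (median 13.17), a log2 fold change of -0.01 (SE 0.10). Its parent gene RPL22 had 14.13 to 14.39 in the high-spike set (median 14.22) and 14.35 to 14.67 in the low-spike set (median 14.51), with -0.29 (SE 0.07, adjusted p = 0.00523, limma).

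The stress comparison was then read inside each set. Over the 62 genes the median log2 fold change of high against low stress was -0.06 within the high-spike set, where 8 genes were higher and 54 lower. Of all 14399 probe sets 6292 were higher and 8107 lower there. Within the low-spike set the median was 0.03, with 47 of the 62 genes higher and 15 lower. Of all probe sets 6389 were higher and 8010 lower in that set. The 62 genes move together from animal to animal, so these counts are not 62 separate readings. No gene passed limma within either set, where 0.0% of all probe sets passed, with smallest unadjusted p of 0.384 and 0.168. A test of the difference between the sets, an interaction term in limma, called none of the 62 genes and 0.0% of all probe sets, and no interaction p of the 62 was under 0.05. The smallest interaction p belonged to RPL14, RPL38 and RPL23 (0.168, 0.319 and 0.328), with high against low stress values of -0.10, -0.06 and -0.04 within the high-spike set and 0.13, 0.09 and 0.12 within the low-spike set.

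The genes moved together from animal to animal. The median correlation of a pair of the 62 genes over 16 arrays was 0.894, against 0.0303 for pairs of all 5455 genes tested and 0.449 for pairs of 58 mitochondrial ribosomal protein genes. With the means of stress group and set removed, the medians were 0.803 for the 62 genes, 0.0104 for all genes and 0.168 for the mitochondrial ones. All genes of an array share its scaling, and the bright ones share the top of its range. Of the 62 genes, 49 correlated above 0.9 with the mean of the others. RPL22L1, RPL26 and RPL37 stood apart at -0.05, 0.14 and 0.25, and RPL36AL, RPL7L1, RPLP2 and RPS27L lay at 0.62 to 0.68.

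**Figure D4:**
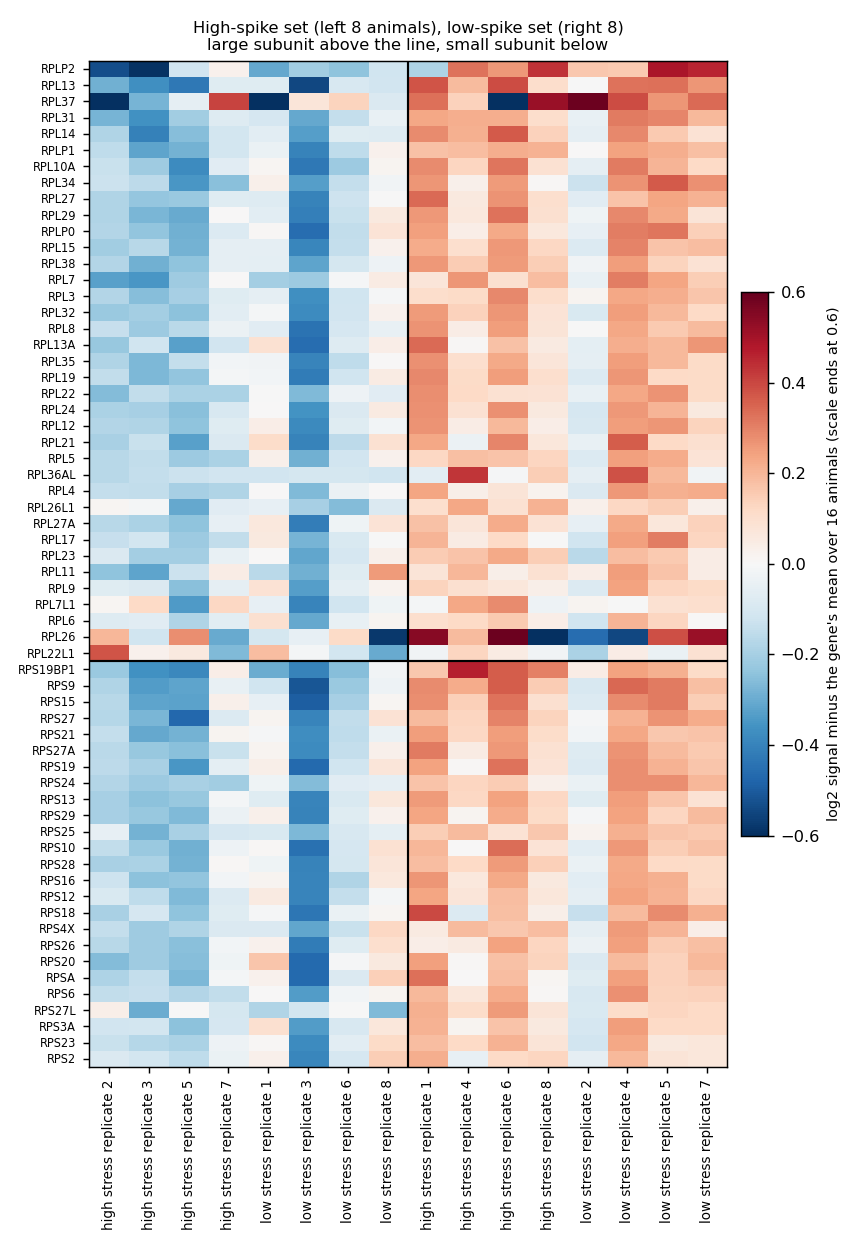
Log2 signal of each tested gene minus its mean over 16 animals (colour, ending at 0.6 in either direction), with genes in rows and animals in columns, the high-spike set left of the line and high stress left of low stress within each set. Columns change colour as a whole, low stress replicate 3 is the deepest blue, and the rows of RPL22L1, RPL26 and RPL37 go their own way.

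Low stress replicate 3 had the lowest mean of the 62 genes, at 13.70, against 13.81 to 14.27 in the other 15 animals. Without it 6 of the 62 genes were higher in high stress and the median was -0.07. Without low stress replicate 4, at 14.27 the highest animal, 47 were higher and the median was 0.02. The median was also above 0 without high stress replicate 2, 3 or 5 and without low stress replicate 5 or 7. No gene passed without any 1 of the 16 animals.

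The SD of log2 signal over 16 arrays had a median of 0.195 over the 62 genes. The smallest SDs were those of RPL6 at 0.136, RPL9 at 0.147, RPL26L1 at 0.156 and RPS2 at 0.156. The largest were those of RPS15A at 1.09, RPL30 at 0.959, RPL37 at 0.529 and RPL26 at 0.418, the 4 genes with the dimmest probe sets. RPS15A had a log2 signal of 1.55 to 5.66 in high stress and 2.06 to 5.26 in low stress. RPL30 had 5.18 to 6.73 in high stress and 3.29 to 6.15 in low stress.

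Of the 64 genes, 24 had more than 1 probe set, with 32 probe sets besides the brightest ones, dimmer by 0.06 to 11.6 on the log2 scale. The 26 of these above the filter followed the brightest one at a median r of 0.279 over 16 arrays. None was called for stress, where 0.0% of all probe sets were. Of the 26, 1 had an unadjusted p under 0.05, where 3.19% of all probe sets did. That was a probe set of RPS27, a zinc-finger protein of the small subunit, with a log2 fold change of -0.54 (unadjusted p = 0.0497, adjusted p = 0.999, limma), against -0.06 for its brightest.

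Between the spike-in sets 6 of these 26 were called lower and 1 higher, where 16.3% of all probe sets were called lower and 23.7% higher. RPL27, RPL31 and RPS18 had other probe sets nearly as bright as the main one, and these had log2 fold changes of -0.28 for RPL27, -0.38 for RPL31, and -0.29 and -0.40 for RPS18. A dimmer probe set of RPS27A, the gene of a ubiquitin fused to a small subunit protein, had 0.73 (adjusted p = 0.0025, limma), while its brightest had -0.31. The 2 correlated at r = -0.679 over 16 arrays. Differences in sign between the sets, by a gap over 0.3, were also found between probe sets of RPL9, RPL13A, RPL27, RPL34, RPL38, RPS25, RPS27 and RPS28, and for stress in RPL7 (0.27 against -0.07 for its brightest).

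**Figure D5:**
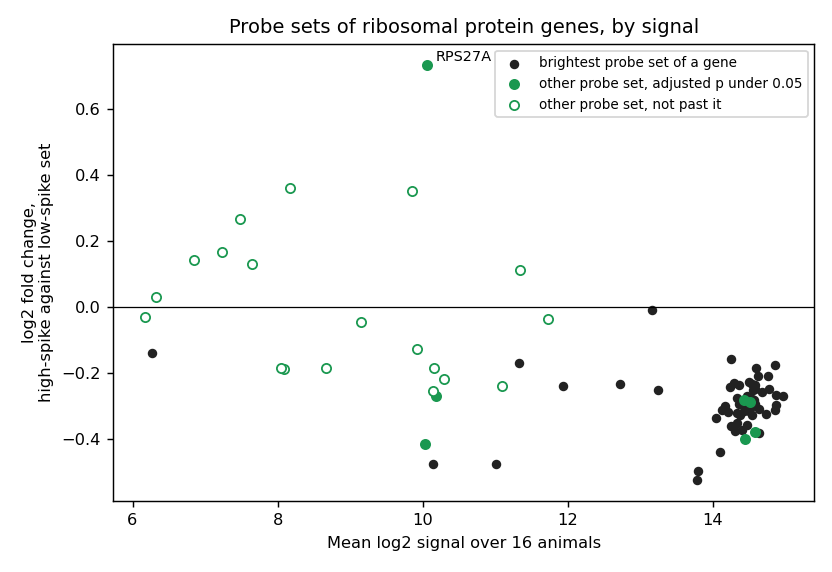
Log2 fold change, high-spike against low-spike set (vertical axis), against the mean log2 signal over 16 animals (horizontal axis) for the brightest probe set of each tested gene (black) and the 26 other probe sets above the filter (green, filled past an adjusted p of 0.05 in limma). Bright probe sets lie together below 0, while dimmer ones of the same genes scatter on both sides, with RPS27A at 0.73.

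Genes that work with the ribosomal proteins gave values on either side of 0 for stress. FAU, whose product is cut into a ubiquitin-like protein and a small subunit protein, had -0.01 (SE 0.12), and RACK1, a scaffold on the small subunit, had 0.05 (SE 0.13). Of 11 other genes whose mRNAs begin with a pyrimidine tract, 4 were higher and 7 lower, with a median of -0.03. None passed, and NAP1L1, a histone chaperone, had the smallest p (log2 fold change -0.41, SE 0.15). Of 27 ribosome biogenesis genes tested, 13 were higher and 14 lower, with a median of -0.0039, and none passed. NPM3, a nucleolar histone chaperone, had 0.55 (SE 0.12) and passed when the spike-in set was a block. NHP2 of the box H/ACA particles that modify rRNA had 0.28 (SE 0.13) and FBL, the rRNA methyltransferase, 0.21 (SE 0.11). Of 58 genes of the mitochondrial ribosome, which translates the mitochondrial genome, 42 were higher and 16 lower, with a median of 0.05, and none passed. Of all 5455 genes tested 2739 were higher and 2716 lower. Pairs of the 58 genes correlated at a median of 0.449 over 16 arrays, so these are not 58 separate readings. MRPL28 had 0.22 (SE 0.11) and MRPS28 0.23 (SE 0.12).

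Between the spike-in sets FAU and RACK1 passed as lower in the high-spike set (log2 fold change -0.33 and -0.37, SE 0.08 each), and neither passed after quantile normalization (-0.06 and -0.10). Of the 11 genes with a pyrimidine tract 3 were called lower and 1 higher, where 16.3% of all probe sets were called lower and 23.7% higher. After quantile normalization 1 was called lower and 2 higher, and the median of the 11 was 0.06, against -0.14 as deposited. EEF1D, an elongation factor subunit, had -0.40 (SE 0.09) and was called lower under both scalings (adjusted p = 0.0443 after quantile normalization, limma). EEF1B2, another such subunit, had -0.30 and TPT1, a growth-related calcium-binding protein, -0.27 (SE 0.08 each), and neither was called after quantile normalization (adjusted p = 0.693 and 0.84, limma). EIF3E of the initiation factor eIF3 had 0.57 (SE 0.12) and was called higher under both scalings. Of the 58 mitochondrial ribosomal genes 35 were called lower and 3 higher as deposited, where 16.3% of all probe sets were called lower and 23.7% higher. After quantile normalization 36 were called lower and 2 higher, where 21.4% of all probe sets were called lower and 20.5% higher. Of the 62 cytosolic genes 54 were called lower as deposited and 4 after quantile normalization. These counts set no contrast between the cytosolic and the mitochondrial genes. The mean log2 signal over 16 animals was 14.04 for the 62 genes and 10.44 for the mitochondrial ones. Quantile normalization removes a shift shared by the brightest probe sets of an array, and its part in these counts was not tested.

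The named genes outside the list that followed the mean of the 62 most closely over 16 arrays were OAZ1, at r = 0.989, LOC100525692 at 0.986, FAU at 0.985, FTL at 0.977 and ATP5E at 0.971. OAZ1 encodes an inhibitor of polyamine synthesis, FTL a ferritin chain and ATP5E a subunit of the ATP synthase. Their mean log2 signals were 14.06, 14.33, 14.54, 14.67 and 14.10, in the range of the ribosomal protein genes.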

How the data were processed

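The deposited table holds linear intensity values, 1 column per array. The authors made them with MAS5 in Affymetrix Expression Console (version 1.1.1), according to the submitters' processing notes. The mean of a column without the highest and lowest 2% was 500 as an average over the 16 columns. That average alone does not show that each array was scaled to this value. The deposited intensities were taken to log2 here. After 124 control probe sets were set aside, 23999 remained, 10069 with 1 gene symbol, 198 with several and 13732 with none. A filter removed probe sets with a mean below the 40th percentile (signal 71.1) and left 14399. Gene numbers of all 64 genes were found in the RefSeq table of Sscrofa11.1, from which only names were read, and 0 symbols differed.

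limma 3.58.1 (R 4.3.3; lmFit and eBayes, two-sided, Benjamini-Hochberg over all probe sets tested) gave the fold changes, SE, intervals and p. The spike-in sets were split at the largest gap in mean log2 dap signal, and the fit between them had stress as a covariate. The fits were tested on simulated data. The genes and lists were chosen with earlier results of these data known, so lists are described by counts and medians without a test. Genes named are those with the smallest p in each comparison, the extremes of SD and signal, the paralogs, those whose probe sets disagreed and those called; RPS23 was named after its values were seen. Alternatives were other filters, quantile normalization, median centring, a pseudocount of 23.5, an intensity trend, array weights, probe set means, blocks, a Y-linked covariate, each set alone, the strict ribosomal proteins alone, no stress covariate and leaving out each animal. The block after quantile normalization was added after the data were seen. The number of arrays limits the precision. Nothing in the labels says whether animals shared a pen or litter. Python 3.11.15 with matplotlib 3.10.9 made the plots.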

Additional observations from a re-analysis of the deposited data

Results flagged for a closer look

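In 6 cases the highest or lowest of a group's 8 animals lay far from the other 7 by Dixon's test of the gap as a share of the group's range. The test was run on 134 groups, which covered 63 of the 64 genes. Chance alone flags about 1 in 20 such groups, and the 6 cases are near that share. In 5 of the 6 cases the animal was low stress replicate 3, which had the lowest mean of the tested genes. These 5 share 1 animal and are not separate cases. In that animal RPL27A had a log2 signal of 14.16, against 14.53 to 14.80 in the other low stress animals (gap 0.571 of the range). RPS20 had 14.31, against 14.69 to 14.97 (0.573), and RPSA, the laminin-binding small subunit protein, had 14.11, against 14.49 to 14.82 (0.534). RPL7L1 had 10.93, against 11.21 to 11.43 (0.553). RPS15A, below the filter on low signal, had 2.06, against 4.01 to 5.26 (0.61). RPS15A was also low in high stress replicate 8, at 1.55, against 3.74 to 5.66 in the other high stress animals (0.533).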

How the results depend on the processing

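No ribosomal protein gene passed for stress or for the interaction under any of the alternatives run. Over these, the median log2 fold change for stress lay between -0.06 and 0.06, and between -0.07 and 0.02 without each animal in turn. The large minus small subunit difference of medians lay between -0.01 and 0.01, and between -0.02 and 0.00 without each animal. Median centring turned the split to 57 higher of 62, with the median of all probe sets at 0.04, and quantile normalization to 35 higher. The count called between the spike-in sets was 4 after quantile normalization, where 21.4% of all probe sets were called lower. It was 44 to 56 without each animal, and at most 60 in the other settings. Median centring gave 60, where 29.2% of all probe sets and 39.5% of the 5455 genes were called lower. Centring moved the median of all probe sets between the sets to -0.15 and that of the 62 genes to -0.42. RPL31 was no longer called after quantile normalization (-0.12, adjusted p = 0.116, limma). Centring adds the same amount to the stress value of each gene, which alone turned signs, among them those of RPL7 (0.0057), RPL17 (0.0117) and RPL11 (0.0128). RPL7 had 0.10 with the mean of its probe sets. RPL23 had -0.0391 within the high-spike set and -0.0014 to 0.0725 without each animal, and RPS9 -0.0341 to 0.0887. The cause of these changes in RPL7, RPL23, RPS9 and RPL31 was not tested. No paired analysis was possible because the labels carry animal numbers and no replicate number shared by the groups. A block for the leading digit of those numbers left 0 genes called.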
